A study of Mus musculus with 16 samples.

Results

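The knockout effect of Nr4a1 in subcutaneous adipose progenitors was read from 8 of the 16 RNA-seq libraries of the series. They are the 4 libraries of subcutaneous fat (SAT) from knockout mice (KO) and the 4 from wild-type mice (WT), named KO SAT and WT SAT replicates 1 to 4 below. Of 38720 gene entries in the count table, 16842 passed a filter on low counts and were tested. The other 8 libraries, of visceral fat (VAT) from the same 2 genotypes, share the estimate of spread and serve as the comparison depot.

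Nr4a1, also called Nur77, is an orphan nuclear receptor and an immediate early gene: its transcript appears within minutes of a growth factor, cytokine or stress signal, and its protein binds DNA as a monomer or with a relative. Adipose progenitors are fibroblast-like stromal cells of the fat pad that carry Pdgfra and Cd34, lay down matrix, divide, and give rise to new adipocytes. In young mice the subcutaneous pads hold several kinds of such cells, among them Dpp4-carrying interstitial cells, Icam1-carrying committed preadipocytes and F3-carrying cells that restrain adipogenesis.

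Per the labels, all mice were 4 weeks old. WT mice carried the label C57BL/6J and a wild-type genotype, and KO mice the strain label C57BL/6J with the genotype B6;129S2-Nr4a1tm1Jmi/J, a constitutive allele made in 129S2 cells, so that every cell of the animal lacks the normal gene. DNA of 129S2 origin that still flanks the allele cannot be told apart from the knockout. The labels call the libraries of a group biological replicates. They do not say that each is a separate animal, and a p-value here reflects the spread among libraries, which may be technical. MACS appears in the column names. Markers used for cell isolation, sex and litter were not stated. RNA came from the RNeasy Micro kit, and the NEBNext Ultra RNA kit does not keep the strand of the transcript.

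The WT SAT libraries held 34655519 to 49437944 counts and the KO SAT libraries 44181663 to 55551845. Levels below are CPM, counts scaled to the library total after TMM normalisation, and a gene is said to have risen or fallen in KO where edgeR's quasi-likelihood test gave a Benjamini-Hochberg adjusted p under 0.05 over all tested genes. Several markers of adipose progenitors were abundant in every library. Pdgfra lay at 595 to 961 CPM, Cd34 at 1208 to 1829 CPM, Ly6a at 1116 to 2092 CPM and the interstitial marker Pi16 at 2039 to 3420 CPM. Others were lower: Icam1 lay at 57 to 84.3 CPM, Pparg at 30.3 to 50.9 CPM and Dlk1 at 9.51 to 21.9 CPM. None of the 10 progenitor markers examined passed the test. Endothelial markers summed to 214 to 239 CPM in WT and 236 to 316 CPM in KO, macrophage markers to 27.9 to 45.4 and 33.1 to 42.3 CPM, T and natural killer cell markers to 8.04 to 14.2 and 9.49 to 13.3 CPM, and epithelial markers to 7.31 to 8.29 and 5.04 to 7.51 CPM. Larger sums came from pericyte and smooth muscle markers, at 2957 to 4959 CPM in WT and 2366 to 3268 CPM in KO. Schwann cell markers summed to 1041 to 1562 CPM in WT and 938 to 1126.5 CPM in KO. Of adipocyte markers, Car3 lay at 205 to 422 CPM over the 8 libraries, Plin1 at 31.9 to 57.3 CPM and Adipoq at 13.8 to 32.4 CPM. Cidec lay at 2.86 to 6.14 CPM, Retn at 1.39 to 5.14 CPM and Lep at 0.072 to 0.377 CPM, and none of these passed the test. The list of adipocyte lipid storage and adipokine genes summed to 6361 to 7945 CPM in WT and 4936 to 7272 CPM in KO. The defining markers Cd8a, Krt5 and Ucp1 were too low to be tested. In bulk RNA, fewer cells of a type and less RNA per cell cannot be told apart.

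WT SAT replicate 3 correlated with the other WT SAT libraries at 0.975 to 0.978 on log levels across genes, where the other pairs within that group reached 0.990. Its 82 cytosolic ribosomal protein transcripts summed to 38484 CPM, against 20284 to 21940 CPM in the other WT and 17467 to 20123 CPM in the KO SAT libraries. Its 83 nuclear-encoded respiratory chain transcripts summed to 7507 CPM, against 4941 to 5127 and 4562 to 4879 CPM. The median log2 fold change ran from -0.15 in the eighth of tested genes with the shortest exon length to 0.08 in the eighth with the longest, and from -0.01 to 0.02 without that library. Of the 992 genes that passed the test, 723 also passed without WT SAT replicate 3, where 884 passed in all.

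**Figure D1:**
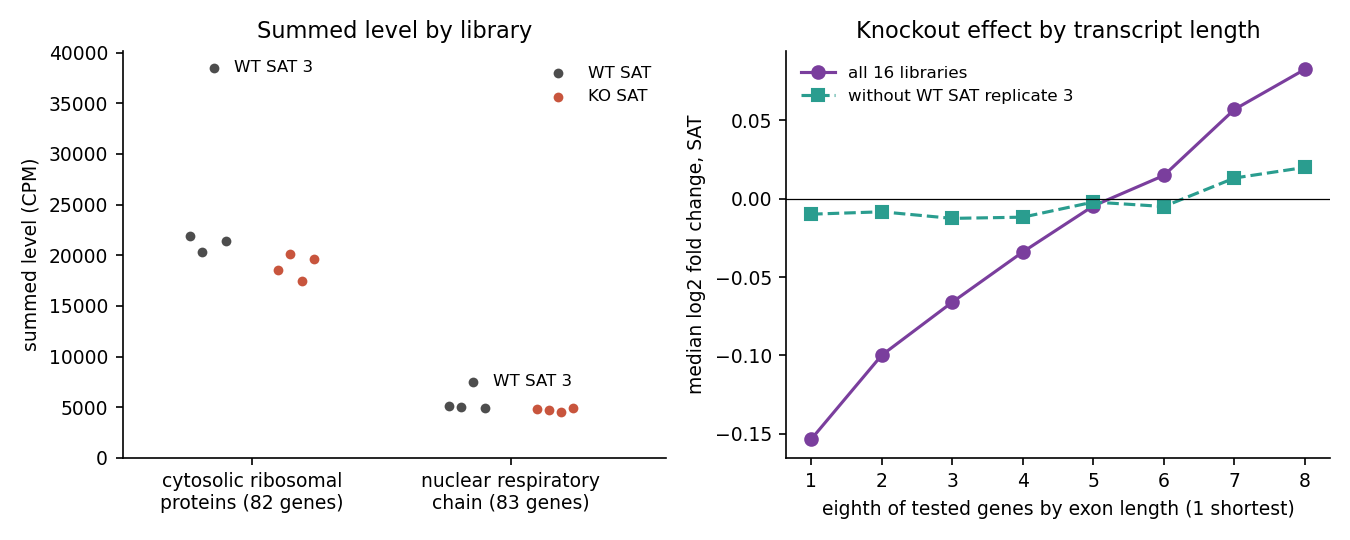
Left: summed level (CPM) of 2 abundant gene lists in each of the 8 SAT libraries, with a point per library. WT SAT replicate 3 lies above the other 7 libraries in both. Right: median log2 fold change, KO SAT against WT SAT, in 8 equal bins of tested genes by exon length, with all 16 libraries (circles) and without WT SAT replicate 3 (squares). The line with all libraries climbs from -0.15 to 0.08, and the line without that library stays between -0.01 and 0.02.

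Nr4a1 lies on chromosome 15 (GRCm38, chr15:101254269-101274795, plus strand). Its level was 1211, 1121, 1018 and 997 CPM in WT and 202, 209, 195 and 199 CPM in KO. The KO mean was 18.5% of the WT mean, and the groups were far apart (log2 fold change -2.43 ± 0.08 SE, adjusted p = 5.34e-12). Transcript of the targeted locus was still counted in all 4 KO libraries, and the exons those counts come from are not given in the table. Its relatives did not pass the test. Nr4a2 stood at 83.4, 105, 65.3 and 80.5 CPM in WT and 72.2, 75.4, 87.8 and 70.9 CPM in KO (log2 fold change -0.13 ± 0.12 SE, adjusted p = 0.56). Nr4a3 stood at 123, 124, 77.3 and 121 CPM in WT and 114, 84.3, 120.5 and 91.4 CPM in KO (log2 fold change -0.12 ± 0.18 SE, adjusted p = 0.729). For both relatives the groups overlapped.

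In KO SAT 992 genes differed from WT SAT, 5.89% of those tested. Of these, 582 rose (3.46%) and 410 fell (2.43%). The median log2 fold change was 0.73 among genes that rose and -0.52 among genes that fell, and -0.01 over all tested genes. A change of at least 2-fold was reached by 208 of the genes that rose and 43 of those that fell. Every KO library lay above every WT library in 1339 tested genes (7.95%) and below in 1136 (6.75%). Such separation was seen in 553 of the 582 genes that rose and 358 of the 410 that fell. In all 8 fits that each left out 1 SAT library, 419 genes passed, 284 higher and 135 lower. Without KO SAT replicate 4, 473 genes passed, and without KO SAT replicate 2, 586. At an unadjusted p under 0.05, 3785 of the 16842 tested genes differed in either direction, and DESeq2, a second test, called 1691. List counts at these looser thresholds below are to be read beside those totals.

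Genes that rose tended to be of lower level than genes that fell. The median level over the 8 libraries was 9.94 CPM for genes that rose, 29.7 CPM for genes that fell and 12.7 CPM for all tested genes. Between 1 and 10 CPM, 252 genes rose and 84 fell of 4044 tested. Above 100 CPM, 61 rose and 95 fell of 1718. Protein-coding genes made up 548 of the genes that rose and 390 of those that fell.

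**Figure D2:**
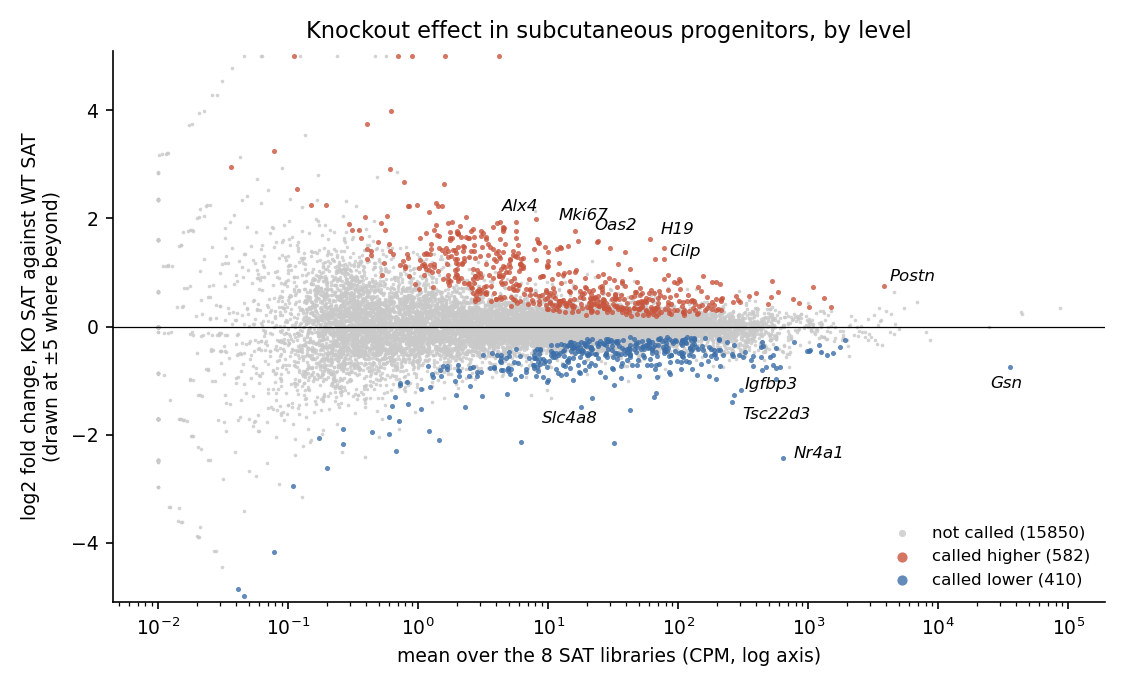
Each point is a tested gene in the SAT comparison: mean level over the 8 SAT libraries (CPM, log axis) against log2 fold change, KO against WT. Red points rose (582), blue points fell (410) and grey points did not pass the test. Nr4a1 is the lowest labelled point at -2.43, and the abundant gene Gsn, at the far right, fell by 0.74 on the log2 scale.

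Genes that carry cells through mitosis rose. The mitotic lists hold cyclins, kinases, motors, spindle proteins and kinetochore proteins whose transcripts are kept low in resting cells and climb in the G2 phase. Many of their promoters carry the cell cycle genes homology region (CHR, TTTGAA), which the DREAM and MYB-MuvB complexes bind, near the start site, with CCAAT boxes upstream. The following promoter stretches (RefSeq, GRCm38.p6, each on the strand of the gene, the start base counted as position 1) are shown for 5 genes that rose and have a CHR close to the start. They were chosen for display after the search. Capitals mark CHR, CCAAT and E2F letters in either orientation.

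Cdk1 (chr10:69352913-69353022, minus strand, positions -110 to -1): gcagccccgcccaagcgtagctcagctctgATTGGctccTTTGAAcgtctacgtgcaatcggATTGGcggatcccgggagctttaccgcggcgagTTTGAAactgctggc
Top2a (chr11:99024190-99024299, minus strand, positions -110 to -1): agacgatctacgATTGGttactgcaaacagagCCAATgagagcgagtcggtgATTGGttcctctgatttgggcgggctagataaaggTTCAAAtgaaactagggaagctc
Kif15 (chr9:122951001-122951080, plus strand, positions -80 to -1): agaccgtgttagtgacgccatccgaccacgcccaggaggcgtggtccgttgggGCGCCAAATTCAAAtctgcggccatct
Ccnf (chr17:24251410-24251559, minus strand, positions -150 to -1): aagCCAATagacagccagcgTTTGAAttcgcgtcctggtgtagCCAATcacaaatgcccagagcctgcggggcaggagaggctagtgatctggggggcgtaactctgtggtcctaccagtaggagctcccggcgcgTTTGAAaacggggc
Espl1 (chr15:102296213-102296292, plus strand, positions -80 to -1): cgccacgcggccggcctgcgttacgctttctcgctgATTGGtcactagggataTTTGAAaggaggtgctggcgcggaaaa

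The CHR closest to the start spanned positions -15 to -10 in Cdk1, -23 to -18 in Top2a, -19 to -14 in Kif15, -14 to -9 in Ccnf and -27 to -22 in Espl1. In Kif15 it followed directly on an E2F element, GCGCCAAA, at -27 to -20.

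Here and below, gene lists and their members were chosen with earlier results of these data known. Their shares beside all tested genes describe the lists and are no independent test. Over the 5 mitotic lists together, 78 of 108 tested genes rose (72.2%, against 3.46% of all tested genes) and none fell. The median log2 fold change was 1.15, or 2.23-fold, against -0.01 over all tested genes. Every KO library lay above every WT library in 84 of the 108, against 7.95% of all tested genes. Counting each of the 8 fits without 1 SAT library, 67 to 77 rose, and 67 of the 78 rose in all 8. Without WT SAT replicate 3, 75 rose. The lists summed to 893, 849, 845 and 958 CPM in WT and 1186, 1222, 1206 and 1367 CPM in KO, so the summed level did not overlap between the groups, and KO SAT replicate 4 was the highest.

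Cyclins and regulators of CDK1, the kinase that starts mitosis, gave 7 that rose of 11. Cdk1 itself stood at 2.92, 3.27, 3.84 and 3.47 CPM in WT and 7.78, 7.85, 7.05 and 9.97 CPM in KO (log2 fold change 1.28 ± 0.14 SE, adjusted p = 5.1e-05). Ccnb1, its cyclin partner, stood at 1.53, 1.35, 1.9 and 2.31 CPM in WT and 4.87, 4.2, 4.92 and 6.35 CPM in KO (log2 fold change 1.52 ± 0.21 SE, adjusted p = 0.000264). The KO libraries were all above the WT libraries for both, and replicate 4 was the highest of the KO libraries in each. Ccnb2 stood at 2.83, 2.65, 3.44 and 3.37 CPM in WT and 7.85, 7.82, 8.15 and 11.2 CPM in KO (log2 fold change 1.51 ± 0.16 SE, adjusted p = 5e-05). The list's count fell to 4 without KO SAT replicate 4 and without WT SAT replicate 2. Ccnf passed with all libraries (log2 fold change 0.77 ± 0.21 SE, adjusted p = 0.0395) and in 1 of the 8 fits that left out a SAT library, the fit without WT SAT replicate 4. By contrast, none of the 10 tested cyclins and kinases of G1 and S entry rose by edgeR or DESeq2, 2 were higher at an unadjusted p under 0.05, and the median log2 fold change was 0.15. Of that list 1 member rose without WT SAT replicate 1 and 1 without WT SAT replicate 4. Ccnd1 stood at 51, 40.4, 30.9 and 40 CPM in WT and 54.6, 57.1, 48.5 and 43.1 CPM in KO (log2 fold change 0.32 ± 0.12 SE, adjusted p = 0.13) and Ccne1 at 1.92, 2.22, 1.74 and 2.73 CPM in WT and 3.05, 2.28, 3.08 and 3.37 CPM in KO (log2 fold change 0.45 ± 0.16 SE, adjusted p = 0.116). Ccnd3, a D-type cyclin of the same list, was the member that fell (log2 fold change -0.25 ± 0.06 SE, adjusted p = 0.023). Its call was lost without WT SAT replicate 1 and without KO SAT replicates 1 and 3 (largest adjusted p = 0.0686).

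Of 18 mitotic kinases and activators of the anaphase-promoting complex, 14 rose, with a median log2 fold change of 1.18. Bub1 and Bub1b hold anaphase back until every chromosome is attached. Bub1 stood at 1.05, 0.995, 0.868 and 1.77 CPM in WT and 3.82, 3.34, 3.45 and 4.14 CPM in KO (log2 fold change 1.64 ± 0.19 SE, adjusted p = 0.000103), and Bub1b at 3.42, 3.01, 2.3 and 4.27 CPM in WT and 7.3, 7.33, 8.73 and 10.2 CPM in KO (log2 fold change 1.36 ± 0.16 SE, adjusted p = 9.9e-05). Ttk, the kinase at the head of the same checkpoint, stood at 0.753, 0.74, 0.4 and 0.849 CPM in WT and 1.9, 2.36, 1.95 and 2.64 CPM in KO (log2 fold change 1.67 ± 0.21 SE, adjusted p = 0.000148). All 3 had KO libraries above every WT library. Pbk, a mitotic kinase, stood at 1.8, 1.76, 1.13 and 1.98 CPM in WT and 6.36, 6.11, 6.34 and 6.72 CPM in KO (log2 fold change 1.92 ± 0.17 SE, adjusted p = 5.63e-06), and Melk at 1.51, 0.689, 1.23 and 1.7 CPM in WT and 4.18, 3.42, 3.58 and 5.08 CPM in KO (log2 fold change 1.66 ± 0.22 SE, adjusted p = 0.000254). For Pbk the KO libraries were closely grouped.

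The kinesins split by job. Of 13 kinesins that work in mitosis, 11 rose, with a median log2 fold change of 1.39, and all 11 also rose in each of the 8 fits without 1 SAT library. Kif14 and Kif20a build the midbody and central spindle, Kif23 bundles it, and Kif15 pushes spindle poles apart. Kif15 stood at 1.37, 1.1, 1.1 and 1.96 CPM in WT and 3.79, 4.01, 3.4 and 4.69 CPM in KO (log2 fold change 1.51 ± 0.17 SE, adjusted p = 7.72e-05). Kif23 stood at 2.99, 2.55, 2.57 and 3.82 CPM in WT and 7.49, 6.99, 7.17 and 9.7 CPM in KO (log2 fold change 1.39 ± 0.18 SE, adjusted p = 0.000163). Kif14 stood lowest, at 0.479, 0.612, 0.133 and 0.707 CPM in WT and 2.38, 2.67, 1.91 and 2.42 CPM in KO (log2 fold change 2.23 ± 0.3 SE, adjusted p = 0.000213). Of 23 transport kinesins, which carry cargo along microtubules in resting cells, none rose by edgeR, by DESeq2 or at an unadjusted p under 0.05, and the median log2 fold change was 0.09, or -0.02 without WT SAT replicate 3. Kif21a fell within that list (log2 fold change -0.44 ± 0.1 SE, adjusted p = 0.0172), a call lost without KO SAT replicate 1 and without KO SAT replicate 3 (largest adjusted p = 0.0533).

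Among 31 spindle, condensin and cytokinesis genes 25 rose, with a median of 1.41. Top2a, which untangles sister chromatids, stood at 11.3, 10.5, 8.61 and 17.9 CPM in WT and 32.5, 37.1, 33.3 and 42.5 CPM in KO (log2 fold change 1.59 ± 0.18 SE, adjusted p = 6.04e-05). Tpx2, which seeds spindle microtubules, stood at 5.39, 4.44, 3.4 and 6.63 CPM in WT and 12.3, 13.6, 13.2 and 16.5 CPM in KO (log2 fold change 1.48 ± 0.16 SE, adjusted p = 6.04e-05). Anln, which anchors the contractile ring, stood at 8.86, 7.99, 3.8 and 9.12 CPM in WT and 20.3, 18.8, 19.9 and 24.9 CPM in KO (log2 fold change 1.48 ± 0.19 SE, adjusted p = 0.000165). Each had all KO libraries above all WT libraries, and Anln was lowest in WT SAT replicate 3. Of 35 centromere and kinetochore genes 21 rose, with a median of 0.83. Ndc80, which grips microtubules, stood at 1.03, 0.816, 0.601 and 1.16 CPM in WT and 3.07, 3, 2.76 and 3.55 CPM in KO (log2 fold change 1.77 ± 0.23 SE, adjusted p = 0.000188). Spc25, of the same complex, stood at 1.51, 1.86, 2.14 and 2.69 CPM in WT and 5.28, 4.51, 5.97 and 6.31 CPM in KO (log2 fold change 1.43 ± 0.19 SE, adjusted p = 0.000188). Mad2l1, which carries the checkpoint signal, stood at 4.63, 3.83, 4 and 5.19 CPM in WT and 7.82, 6.86, 7.26 and 8 CPM in KO (log2 fold change 0.76 ± 0.1 SE, adjusted p = 0.000292). Ndc80 and Spc25 rose by more than Mad2l1, and none of the 3 overlapped between groups.

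**Figure D3:**
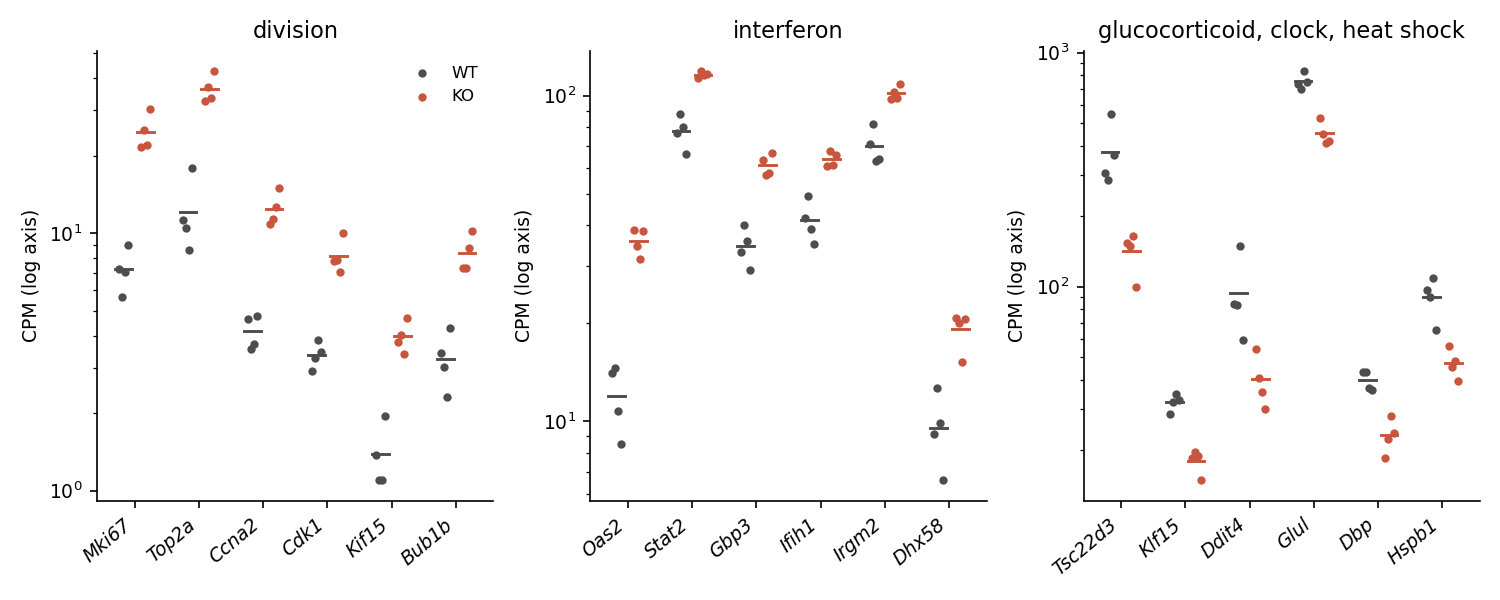
Level of 18 genes (CPM, log axis) in each of the 8 SAT libraries: WT in grey, KO in red, a point per library and a bar at the group mean. The KO points lie above the WT points for all 6 division genes and all 6 interferon genes, and below them for the 6 genes of the right panel.

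Genes of DNA replication and repair moved in the same direction but by less. Of 91 in 4 lists, 28 rose (30.8%, against 3.46% of all tested genes) and none fell, with a median log2 fold change of 0.27. In the 8 fits without 1 SAT library 19 to 28 rose. Homologous recombination and Fanconi repair gave 9 of 22. Fanca, of the core complex that starts repair of DNA crosslinks, stood at 1.42, 1.35, 0.834 and 1.39 CPM in WT and 2.81, 3, 2.34 and 3.03 CPM in KO (log2 fold change 1.15 ± 0.22 SE, adjusted p = 0.00429), without overlap. Replication licensing gave 6 of 23. Gmnn, which blocks licensing once replication has begun, stood at 0.936, 0.867, 0.801 and 0.919 CPM in WT and 2.62, 2.41, 2.14 and 2.52 CPM in KO (log2 fold change 1.45 ± 0.15 SE, adjusted p = 4.29e-05). Pole, a replicative polymerase, was among 8 of 26 in the list of the replication fork, a count that was 5 without WT SAT replicate 1. Pole reached 2.9, 2.17, 1.8 and 2.73 CPM in WT and 5.54, 5.1, 3.91 and 6.15 CPM in KO (log2 fold change 1.1 ± 0.17 SE, adjusted p = 0.000747). The list of E2F, DREAM and FoxM1 regulators gave 5 of 20, a count that was 3 without KO SAT replicate 2 and without KO SAT replicate 4. They were Foxm1, Rbl1, E2f2, E2f8 and Mybl1. Foxm1, the activator of G2 genes, stood at 3.99, 3.75, 2.6 and 5.47 CPM in WT and 7.87, 7.51, 8.18 and 10.1 CPM in KO (log2 fold change 1.08 ± 0.17 SE, adjusted p = 0.00118). Rbl1, a pocket protein of the DREAM complex, stood at 11.4, 13.2, 8.98 and 12.2 CPM in WT and 18.8, 18.1, 17 and 17.7 CPM in KO (log2 fold change 0.64 ± 0.1 SE, adjusted p = 0.0013). Foxm1 and Rbl1 passed in all 8 fits.

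Genes that brake the cell cycle moved in both directions at an unadjusted p under 0.05. An unadjusted p under 0.05 was reached by 3785 of all 16842 tested genes, in either direction. Among 7 CDK inhibitors 1 was higher and 4 were lower at an unadjusted p under 0.05, and 1 passed (14.3%, against 3.46% of all tested genes that rose). This was Cdkn2c, which rose, from 13.5, 13.4, 12.8 and 14.9 CPM in WT to 20.4, 19.7, 22.7 and 23.3 CPM in KO (log2 fold change 0.66 ± 0.08 SE, adjusted p = 0.000163). Cdkn1a stood at 115, 121, 141 and 116 CPM in WT and 113, 95.2, 76.3 and 76.3 CPM in KO (log2 fold change -0.45 ± 0.14 SE, adjusted p = 0.0747) and Cdkn1b at 103, 125, 93.9 and 115 CPM in WT and 112, 123, 122 and 122 CPM in KO (log2 fold change 0.13 ± 0.08 SE, adjusted p = 0.357). For Cdkn1a the KO libraries lay below the WT libraries, with KO SAT replicate 1 next to the lowest of them, and for Cdkn1b the groups overlapped. None of 17 tested p53 targets passed edgeR's test, 2 were higher and 4 lower at an unadjusted p under 0.05, and 1 was lower by DESeq2. Of 19 FoxO, sestrin and antiproliferative genes 2 were higher and 7 lower at an unadjusted p under 0.05. Of these 19, 1 passed (5.26%, against the same 3.46%), Sesn3, which rose with a call lost in 3 of the 8 fits. Of 12 testable replication-dependent histone genes Hist1h1c rose (8.33%, against 3.46%), and its call was lost in 7 of the 8 fits without 1 SAT library.

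RefSeq promoter windows, from 250 bases before to 50 after the start, were matched to 12225 of the 16842 tested genes. A CHR (TTTGAA, either strand) was present in 12.2% of these windows and in 18.1% of all 27025 mouse windows. It was present in 25.5% of windows of genes that rose and 8.63% of genes that fell. Of the 67 mitotic genes that rose and had a window, 64.2% held it, and of the 25 other tested mitotic members 36%. From 40 bases before the start to the end of the window it was found in 2.65% of tested genes, 15.1% of genes that rose, 0.958% of genes that fell, 56.7% of the mitotic genes that rose and 24% of the other mitotic members. The CCAAT box (CCAAT) was present in 37.9% of windows of tested genes, 73.1% of the mitotic genes that rose and 60% of the other mitotic members. An E2F element (TTTGGCGC, TTTCGCGC or TTTCCCGC) was present in 3.3% of windows of tested genes, in 23.8% of the 21 replication and repair genes that rose and in 34% of the other 50 members with a window. The NBRE, the monomer element of Nr4a proteins (AAAGGTCA), was present in 0.957% of windows of tested genes, 0.677% of genes that rose and 1.28% of genes that fell. A match counts letters and is no evidence of binding.

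Interferon-stimulated genes formed another group that rose. These genes answer type I and type II interferon through their receptors and IRF factors, which bind the interferon-stimulated response element (ISRE) in their promoters. Promoter stretches with an ISRE (GAAANNGAA, either strand, in capitals) are shown for 3 members that rose, from a GTPase of each family and from the light chain of MHC class I.

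Gbp3 (chr3:142559974-142560043, plus strand, positions -70 to -1): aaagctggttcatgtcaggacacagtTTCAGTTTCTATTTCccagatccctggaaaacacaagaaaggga
Irgm2 (chr11:58214887-58214946, plus strand, positions -90 to -31): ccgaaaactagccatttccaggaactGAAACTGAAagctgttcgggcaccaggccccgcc
B2m (chr2:122147527-122147586, plus strand, from position -160): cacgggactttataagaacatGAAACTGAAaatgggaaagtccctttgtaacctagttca

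In Gbp3 a pair of overlapping matches spanned positions -44 to -36 and -38 to -30. Irgm2 had its match at -64 to -56 and B2m at -139 to -131. The ISRE letters were present in 7.22% of windows of tested genes, 8.57% of all windows, 50% of the 32 interferon genes that rose and 42% of the 50 other tested members with a window.

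Over the 4 interferon lists 46 of 103 tested genes rose (44.7%, against 3.46% of all tested genes) and 1 fell, with a median log2 fold change of 0.45. Every KO library lay above every WT library in 53 of the 103, against 7.95% of all tested genes. In the fits without 1 SAT library 34 to 48 rose, and 32 rose in all 8. Without WT SAT replicate 3, 48 rose. The lists summed to 10265, 9701, 11404 and 9088 CPM in WT and 11968, 11549, 11234 and 11854 CPM in KO, so WT SAT replicate 3 overlapped the KO range and the other 3 WT libraries lay below it.

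Of 43 interferon-stimulated effectors, 23 rose, with a median of 0.53. Without KO SAT replicate 2 the count was 15. Oas2, which makes the activator of RNase L, stood at 14.1, 14.6, 10.8 and 8.56 CPM in WT and 38.7, 34.5, 31.5 and 38.3 CPM in KO (log2 fold change 1.57 ± 0.2 SE, adjusted p = 0.000188). Ifi44 stood at 1.14, 1.22, 0.734 and 0.684 CPM in WT and 3.07, 3.21, 3.4 and 2.88 CPM in KO (log2 fold change 1.72 ± 0.29 SE, adjusted p = 0.00201). Herc6, an ISG15 ligase in the mouse, stood at 17.3, 18.8, 17.1 and 14.8 CPM in WT and 28.3, 25.7, 24.7 and 29.3 CPM in KO (log2 fold change 0.67 ± 0.11 SE, adjusted p = 0.00161). All KO libraries lay above all WT libraries for these 3. Sp100, a nuclear body protein, stood at 105, 105, 95.5 and 85.7 CPM in WT and 140.3, 132, 131 and 143 CPM in KO (log2 fold change 0.48 ± 0.07 SE, adjusted p = 0.000607). Of 16 guanylate-binding and immunity-related GTPases, 10 rose, with a median of 0.65. Gbp9 stood at 7.6, 10.3, 5.44 and 6.18 CPM in WT and 18, 15.4, 15.5 and 18.3 CPM in KO (log2 fold change 1.18 ± 0.18 SE, adjusted p = 0.00062). Gbp5 stood at 18.8, 19.7, 21.7 and 21.6 CPM in WT and 33.5, 34, 29.6 and 30.6 CPM in KO (log2 fold change 0.64 ± 0.1 SE, adjusted p = 0.000797). Irgm2, whose promoter is printed above, stood at 71.1, 81.5, 63.2 and 63.8 CPM in WT and 97.9, 102, 98.2 and 109 CPM in KO (log2 fold change 0.54 ± 0.08 SE, adjusted p = 0.00072). The groups did not overlap for any of the 3. Reads of close relatives within these families, as within H2-Q6 and H2-Q7, could be split by the counting.

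Sensors and signalling genes gave 9 that rose of 25 (36%, against 3.46% of all tested genes). Tlr3, the endosomal sensor of double-stranded RNA, stood at 18.4, 20.2, 17.8 and 18.4 CPM in WT and 26.4, 28, 27.8 and 27.5 CPM in KO (log2 fold change 0.55 ± 0.07 SE, adjusted p = 0.000264). Dhx58, a cytosolic helper of RNA sensing, stood at 9.13, 12.6, 9.88 and 6.6 CPM in WT and 20.7, 20.1, 15.2 and 20.6 CPM in KO (log2 fold change 1.0 ± 0.18 SE, adjusted p = 0.00278). Both were higher in every KO library. Ifngr1, a chain of the interferon gamma receptor, was the member that fell, by 0.34 on the log2 scale. It lies outside the naming rule and was named after its value was seen, and its call was lost in 6 of the 8 fits without 1 SAT library. Of 19 MHC class I presentation genes 4 rose (21.1%, against the same 3.46%): H2-Q6, H2-Q7, Nlrc5 and B2m. The count was 1 to 4 across the 8 fits. H2-Q6 passed in all of them and stood at 35.3, 32.3, 26.9 and 22.5 CPM in WT and 59.2, 40.7, 51.8 and 45.3 CPM in KO (log2 fold change 0.75 ± 0.16 SE, adjusted p = 0.0092). B2m stood at 898, 875, 1019.5 and 771 CPM in WT and 1196, 1078, 1132 and 1165 CPM in KO (log2 fold change 0.36 ± 0.09 SE, adjusted p = 0.0287), WT SAT replicate 3 was closest to the KO libraries, and the call was lost in 6 of the 8 fits.

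**Figure D4:**
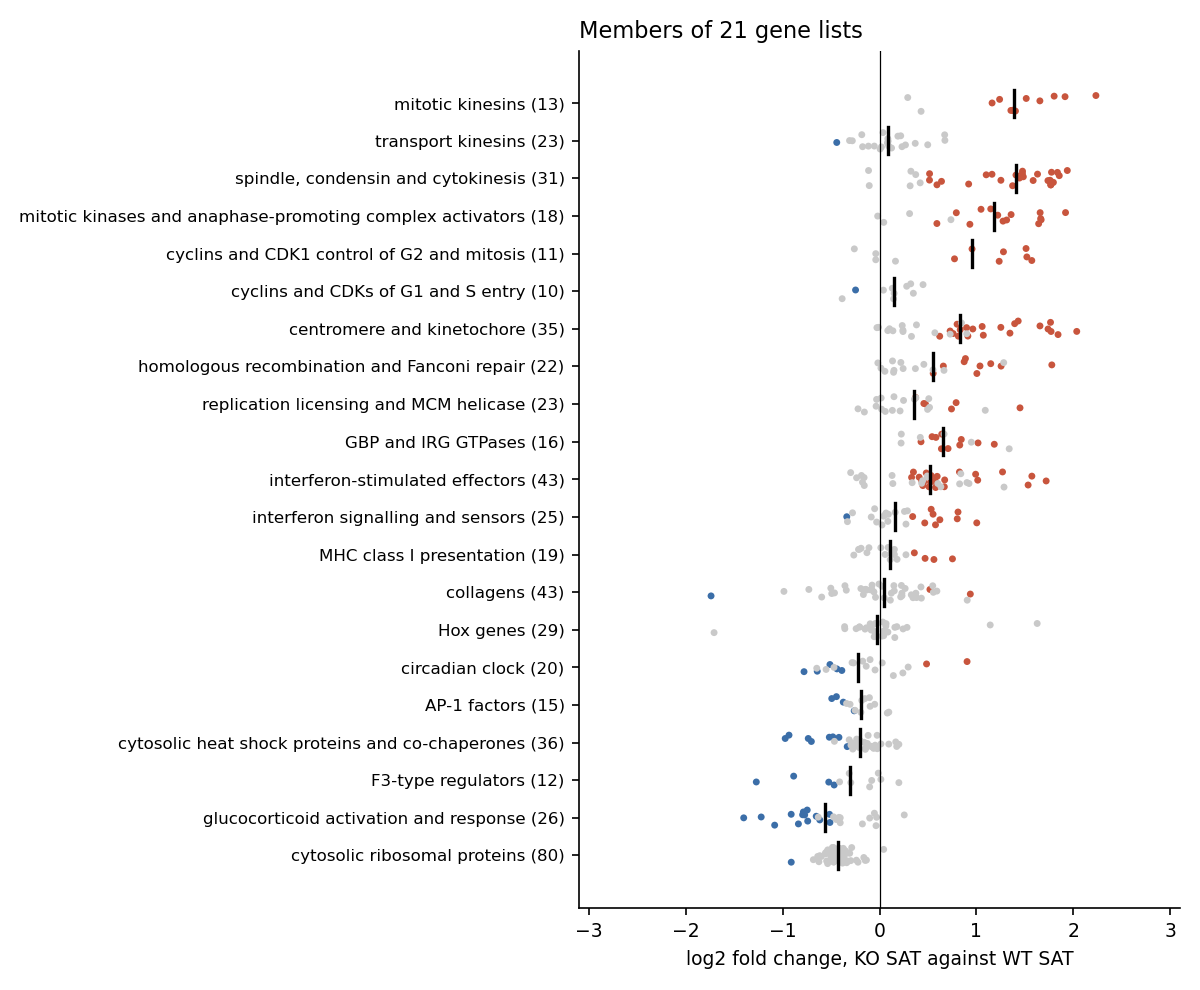
Log2 fold change, KO SAT against WT SAT, of every tested member of 21 gene lists, with the number tested in parentheses. Red members rose, blue members fell, grey members did not pass the test, and black bars mark list medians. Mitotic kinesins and spindle genes cluster above 1, transport kinesins and Hox genes around 0, and glucocorticoid response genes mostly below 0.

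Many genes of glucocorticoid activation and response fell. Corticosterone, regenerated from its inactive form inside the fat pad by Hsd11b1, acts through the glucocorticoid receptor on a set of genes that includes its own feedback regulators. Of 26 tested genes of activation and response, 14 fell (53.8%, against 2.43% of all tested genes) and none rose, with a median log2 fold change of -0.57. Hsd11b1, which acts upstream of the receptor, was itself among those that fell. Without KO SAT replicate 4, 9 fell. Without WT SAT replicate 3, 13 fell and the median was -0.49. Tsc22d3 (GILZ), an anti-inflammatory mediator, stood at 305, 285, 546 and 364 CPM in WT and 154, 149, 164 and 100.03 CPM in KO (log2 fold change -1.4 ± 0.19 SE, adjusted p = 0.000264). Ddit4, a brake on mTOR, stood at 84.2, 83.3, 149 and 58.9 CPM in WT and 54.4, 40.8, 35.6 and 30.1 CPM in KO (log2 fold change -1.22 ± 0.24 SE, adjusted p = 0.00634). WT SAT replicate 3 was the highest library for both, and the KO libraries lay below all WT libraries. Klf15 stood at 28.6, 32.2, 34.7 and 32.7 CPM in WT and 18.5, 19.6, 18.8 and 14.9 CPM in KO (log2 fold change -0.84 ± 0.09 SE, adjusted p = 7e-05). Glul, glutamine synthetase, stood at 737, 702, 833 and 748 CPM in WT and 526, 449, 412 and 419 CPM in KO (log2 fold change -0.74 ± 0.09 SE, adjusted p = 0.00013). Sult1a1, a sulfotransferase, stood at 77.5, 68.5, 111 and 79.2 CPM in WT and 50.1, 49.4, 51.2 and 43.8 CPM in KO (log2 fold change -0.79 ± 0.12 SE, adjusted p = 0.000687). Klf15 and Glul differed little between WT libraries, and Sult1a1 was highest in WT SAT replicate 3. Fam107a stood at 43.1, 40.6, 47.8 and 43.1 CPM in WT and 28.1, 22.4, 23.3 and 8.83 CPM in KO (log2 fold change -1.08 ± 0.25 SE, adjusted p = 0.0153), with KO SAT replicate 4 the lowest. The calls of Errfi1, Klf9, Mt1, Mt2 and Sgk1 were lost without KO SAT replicate 4, among other libraries for all but Errfi1 (largest adjusted p = 0.057 for Errfi1 and 0.0668 for Klf9). A palindrome of the kind steroid receptors bind (ACANNNTGT) was present in 4.38% of windows of tested genes, 15.4% of the 13 members that fell and had a window, and 11.1% of the 9 others.

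Some circadian clock genes changed, in both directions. In the clock, Arntl and its partners drive genes with E-boxes, among them Per1, Dbp, Tef, Hlf and Nr1d1, and Nr1d1 represses Arntl in turn. Of 20 tested, 2 rose (10%, against 3.46% of all tested genes), Arntl and Npas2, and 5 fell (25%, against 2.43%), Dbp, Per1, Nr1d1, Hlf and Tef. Npas2 and Tef lie outside the naming rule and were named after their values were seen, and their calls were lost in 3 and 6 of the 8 fits. Arntl stood at 12.2, 12.7, 14 and 14.3 CPM in WT and 27.2, 24.3, 22 and 25.9 CPM in KO (log2 fold change 0.9 ± 0.1 SE, adjusted p = 7.72e-05). Dbp stood at 43.2, 43, 37 and 36 CPM in WT and 18.6, 22.3, 28.1 and 23.8 CPM in KO (log2 fold change -0.78 ± 0.12 SE, adjusted p = 0.00102). Per1, also counted in the glucocorticoid list, stood at 242, 216, 197 and 227 CPM in WT and 166, 158, 162 and 132 CPM in KO (log2 fold change -0.51 ± 0.1 SE, adjusted p = 0.00494), and Nr1d1 at 197, 203, 143 and 173 CPM in WT and 133, 129, 129 and 137 CPM in KO (log2 fold change -0.44 ± 0.09 SE, adjusted p = 0.011). The groups did not overlap for these 4. Omitting KO SAT replicate 4 left 3 that fell and omitting WT SAT replicate 3 gave 7, and omitting KO SAT replicate 1, WT SAT replicate 1 or WT SAT replicate 2 left 1 that rose. The hour of tissue collection was not stated.

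Chaperones and immediate early factors fell in part. Of 36 cytosolic heat shock proteins and co-chaperones, 8 fell (22.2%, against 2.43% of all tested genes) and none rose, with 6 to 9 that fell across the 8 fits. Hspa1b stood at 597, 732, 650.4 and 659 CPM in WT and 418, 406, 412 and 384 CPM in KO (log2 fold change -0.7 ± 0.09 SE, adjusted p = 0.000119), and Hspb7, a small heat shock protein, at 7.26, 9.36, 7.94 and 4.81 CPM in WT and 3.82, 4.01, 4.11 and 3 CPM in KO (log2 fold change -0.97 ± 0.16 SE, adjusted p = 0.00114). Hspa1a and Hspa1b are near-identical copies, and their reads could be split between them. Of 15 AP-1 genes, 4 fell (26.7%, against the same 2.43%): Junb, Maff, Jund and Jdp2. Junb stood at 2048, 1834, 2196 and 1885 CPM in WT and 1633, 1566, 1436 and 1508 CPM in KO (log2 fold change -0.37 ± 0.07 SE, adjusted p = 0.00541). Junb and Maff passed in all 8 fits, and 2 of the list fell when KO SAT replicate 2, 3 or 4, or WT SAT replicate 1, was omitted. Of 15 EGR factors, NAB corepressors and other immediate early genes, Egr2 rose, at 31.8, 40.9, 35.2 and 37.7 CPM in WT and 62.2, 46.3, 57.9 and 61 CPM in KO (log2 fold change 0.64 ± 0.12 SE, adjusted p = 0.00414), and Ier5l fell, a call lost in 6 of the 8 fits. The 16 MAPK phosphatases and Sprouty genes, which report growth factor signalling, gave none that passed by edgeR or DESeq2, and 1 in each direction at an unadjusted p under 0.05.

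Some imprinted genes of the fetal growth network were higher. Of 20 tested, 5 rose (25%, against 3.46% of all tested genes): H19, Rian, Peg10, Peg3 and Mest. Mest was named after its value was seen, and its call was lost in 6 of the 8 fits. H19 stood at 19.9, 33.6, 28.3 and 38.6 CPM in WT and 99, 70.2, 93.2 and 107 CPM in KO (log2 fold change 1.62 ± 0.26 SE, adjusted p = 0.00132). Rian, a long noncoding RNA of the Dlk1-Dio3 locus, stood at 306, 283, 233 and 320.5 CPM in WT and 375, 433, 424 and 452 CPM in KO (log2 fold change 0.56 ± 0.12 SE, adjusted p = 0.0092). Peg10 stood at 22.8, 21.4, 12.3 and 23.1 CPM in WT and 42.2, 30.1, 31.5 and 37 CPM in KO (log2 fold change 0.82 ± 0.18 SE, adjusted p = 0.0138). KO and WT did not overlap for the 3, and Peg10 was lowest in WT SAT replicate 3. Ndn was the member that fell, at 225, 194, 290.5 and 226 CPM in WT and 186, 182, 156 and 167 CPM in KO (log2 fold change -0.43 ± 0.1 SE, adjusted p = 0.0132); its adjusted p was 0.0504 without KO SAT replicate 4. The count that rose was 3 without KO SAT replicate 1, without KO SAT replicate 4 and without WT SAT replicate 1.

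Among the most abundant genes that passed, few changed by much. Gsn, an actin-severing protein that stromal cells also secrete, stood at 40533, 37833, 55944 and 44036 CPM in WT and 30095, 25127, 25895 and 25591 CPM in KO (log2 fold change -0.74 ± 0.11 SE, adjusted p = 0.00071). Postn, a matricellular protein, stood at 2854, 2776, 2647 and 3237 CPM in WT and 4549, 5076, 4356 and 5325 CPM in KO (log2 fold change 0.75 ± 0.12 SE, adjusted p = 0.00102). Both were separated between the groups, Gsn lower and Postn higher in KO. Fth1, the heavy chain of ferritin, stood at 1744, 1497, 2434 and 1517 CPM in WT and 1339.5, 1353, 1177 and 1257 CPM in KO (log2 fold change -0.49 ± 0.12 SE, adjusted p = 0.0233). Ecm1, a secreted matrix glycoprotein, stood at 1567, 1242, 1858 and 1202 CPM in WT and 1050.5, 1132, 1023 and 1026 CPM in KO (log2 fold change -0.47 ± 0.12 SE, adjusted p = 0.0316). Eef2, the translocase of translation, stood at 2128, 1982, 2236 and 1969 CPM in WT and 1678, 1810.5, 1720.2 and 1775 CPM in KO (log2 fold change -0.25 ± 0.07 SE, adjusted p = 0.0363). The 3 fell without overlap, and their calls were lost in some fits without 1 SAT library: 2 of 8 for Fth1, 6 for Ecm1 and 6 for Eef2.

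Some ligands and receptors changed, in both directions. Fgf10, a growth factor of preadipocytes, stood at 62.5, 85, 53.7 and 81.3 CPM in WT and 162, 101, 130.4 and 130.2 CPM in KO (log2 fold change 0.89 ± 0.16 SE, adjusted p = 0.00274). Sema3g, a secreted semaphorin, stood at 3.79, 6.1, 3.87 and 3.65 CPM in WT and 15.8, 10.3, 11.8 and 12.8 CPM in KO (log2 fold change 1.54 ± 0.23 SE, adjusted p = 0.000593). Rspo2, which amplifies Wnt signals, stood at 3.84, 3.24, 3.3 and 1.91 CPM in WT and 9.43, 7.46, 7.05 and 6.62 CPM in KO (log2 fold change 1.31 ± 0.27 SE, adjusted p = 0.00784). These 3 were higher in every KO library. Efnb2, a membrane ephrin, stood at 11.9, 12.6, 9.18 and 11.6 CPM in WT and 15.8, 17.9, 16.9 and 20.6 CPM in KO (log2 fold change 0.65 ± 0.12 SE, adjusted p = 0.00305). Bambi, a decoy receptor for TGF-beta family ligands, stood at 16, 15.1, 16.1 and 15.3 CPM in WT and 9.94, 11.8, 10.7 and 10.4 CPM in KO (log2 fold change -0.55 ± 0.08 SE, adjusted p = 0.000797). Inhbb, an activin subunit, stood at 2.63, 2.63, 2.3 and 2.95 CPM in WT and 0.984, 1.61, 1.61 and 1.77 CPM in KO (log2 fold change -0.82 ± 0.17 SE, adjusted p = 0.0101). The last pair fell without overlap. By list, 3 of 26 PDGF and FGF ligands and receptors rose (11.5%, against 3.46% of all tested genes), Fgfr3, Fgf10 and Pdgfd, and none fell. Of 58 axon guidance genes 5 rose (8.62%) and 3 fell (5.17%), against 3.46% and 2.43% of all tested genes. Of 29 TGF-beta, activin and BMP ligands and inhibitors 1 rose (3.45%) and 3 fell (10.3%), against the same shares. In the 8 fits without 1 SAT library, 3 to 6 of the axon guidance genes rose and 0 to 3 fell, with none that fell when any KO SAT replicate or WT SAT replicate 4 was omitted. For the TGF-beta list these counts were 0 to 2 and 2 to 5, with none that rose without KO SAT replicates 2 or 4 or WT SAT replicates 2 or 4, and 2 and 5 without WT SAT replicate 3. Esr1, the estrogen receptor, rose at 126, 146, 128 and 141 CPM in WT and 220.1, 173, 176 and 220.5 CPM in KO (log2 fold change 0.55 ± 0.11 SE, adjusted p = 0.00572) among 38 nuclear receptors. Of that list 2 rose (5.26%, against 3.46% of all tested genes), Esr1 among them, and 2 fell (5.26%, against 2.43%), Nr4a1 and Nr1d1.

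The share of matrix genes that passed the test differed by list. Of 43 collagens 2 rose (4.65%, near the 3.46% of all tested genes), Col6a5 and Col14a1, and 1 fell (2.33%, near the 2.43%), Col2a1, and none of the 3 passed in all 8 fits. Of 22 elastic fibre genes Fbn2, Mfap4 and Eln rose (13.6%, against 3.46%) and Fbln1 fell (4.55%, against 2.43%). Of 26 matrix glycoproteins 2 rose (7.69%) and 3 fell (11.5%), with 0 to 2 that fell across the 8 fits. Small leucine-rich proteoglycans gave 1 that rose (7.14%) and 2 that fell (14.3%) of 14. Metalloproteases, ADAMTS and TIMPs gave 1 that rose (2.86%) and 2 that fell (5.71%) of 35. Mfap4, a microfibril protein, stood at 30.6, 38.7, 50.1 and 36.9 CPM in WT and 69.6, 149, 77.3 and 77.2 CPM in KO (log2 fold change 1.25 ± 0.22 SE, adjusted p = 0.00264), with KO SAT replicate 2 the highest. Matn2, an adaptor of matrix filaments, stood at 39.8, 48.3, 45.6 and 48.8 CPM in WT and 94.8, 128, 96.2 and 116 CPM in KO (log2 fold change 1.25 ± 0.12 SE, adjusted p = 2.21e-05). Cilp, a matrix protein of cartilage and fibrosis, stood at 36, 22.2, 50.4 and 58.4 CPM in WT and 109, 188, 81.8 and 76.4 CPM in KO (log2 fold change 1.45 ± 0.31 SE, adjusted p = 0.0101). All KO libraries were above all WT libraries for these. In the other direction, Galnt15, a sugar transferase, stood at 245, 240.2, 299 and 245 CPM in WT and 115, 172, 112 and 124 CPM in KO (log2 fold change -0.98 ± 0.13 SE, adjusted p = 0.000188), and Inmt, a methyltransferase, at 395, 344, 599 and 361 CPM in WT and 223, 180.4, 222 and 126 CPM in KO (log2 fold change -1.18 ± 0.2 SE, adjusted p = 0.00166). Inmt was highest in WT SAT replicate 3.

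Some markers of progenitor types passed the test, and the list medians differed in sign. Of 20 markers of Dpp4-carrying interstitial progenitors, 3 rose (Il33, Sema3c and Cd55; 15%, against 3.46% of all tested genes) and none fell, with a median log2 fold change of 0.12 and 15 above 0. Of 20 of Icam1-carrying preadipocytes, 1 rose (5%, against 3.46%), Sdc1, and 3 fell (15%, against 2.43%), Hsd11b1, Agt and Sparcl1. The median of this list was -0.34, with 3 above 0. Of 12 of F3-carrying regulators, 4 fell (Cygb, Fmo2, Igfbp3 and Gdf10; 33.3%, against 2.43%) and none rose, with a median of -0.3 and 2 above 0. Cd55, Sdc1 and Sparcl1 each lost their call in 6 of the 8 fits. Il33, an alarmin of interstitial progenitors, stood at 58.6, 64, 48.1 and 48.3 CPM in WT and 94.8, 104, 95.5 and 109.8 CPM in KO (log2 fold change 0.88 ± 0.1 SE, adjusted p = 7.72e-05). Igfbp3, which sequesters insulin-like growth factors, stood at 265, 342, 448 and 479 CPM in WT and 134, 159.8, 151 and 190.1 CPM in KO (log2 fold change -1.27 ± 0.28 SE, adjusted p = 0.0113). Fmo2, a flavin monooxygenase, stood at 172, 209, 139 and 209 CPM in WT and 98.3, 105, 124 and 67.1 CPM in KO (log2 fold change -0.89 ± 0.17 SE, adjusted p = 0.00474). Il33 was higher in each KO library, and the other 2 lower. Hox genes carry the body position of stromal cells, and none of 29 tested Hox genes passed by edgeR or DESeq2, 1 was lower at an unadjusted p under 0.05, and the median log2 fold change was -0.02, with the sign reversed in 3 of the 8 fits. Alx4, a homeobox factor of the body wall, stood apart from them at 4.04, 4.36, 1.64 and 2.73 CPM in WT and 17.4, 9.71, 13.7 and 10.7 CPM in KO (log2 fold change 1.99 ± 0.25 SE, adjusted p = 0.00013).

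Among the 6 long noncoding RNA genes with the smallest p, 0610007N19Rik fell, at 56.9, 55.5, 77.7 and 64.4 CPM in WT and 22.4, 20.2, 23.5 and 21.2 CPM in KO (log2 fold change -1.54 ± 0.12 SE, adjusted p = 9.45e-07). G530011O06Rik rose, at 3.1, 1.53, 2.07 and 2.55 CPM in WT and 9.41, 7.28, 5.54 and 13.5 CPM in KO (log2 fold change 1.94 ± 0.27 SE, adjusted p = 0.000335). Gm26917 fell (log2 fold change -0.76 ± 0.12 SE, adjusted p = 0.000797), and AI427809 (log2 fold change 1.1 ± 0.19 SE, adjusted p = 0.00262) and 5930403N24Rik (log2 fold change 1.27 ± 0.25 SE, adjusted p = 0.00517) rose with H19. For the first pair no library of a group reached the range of the other. 

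The knockout effect was then set beside that in visceral progenitors of the same genotypes, which come from separate libraries. In VAT 690 genes passed (4.1%), 478 higher (2.84%) and 212 lower (1.26%). Of these, 267 moved in the same direction as in SAT, 26.9% of the SAT genes and 38.7% of the VAT genes, and 3 in the opposite direction. A test of the difference between the 2 knockout effects passed in 45 genes (0.267%), and 26 of them were among the 992. That test treats the 16 libraries as independent, and whether SAT and VAT libraries share mice was not stated.

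Mitotic genes rose in both depots. Of the 108 mitotic genes 83 rose in VAT, against 2.84% of all tested genes, with a median log2 fold change of 1.31. In both depots 76 rose. The difference between depots passed for none of the 108 by edgeR or DESeq2, with 13 at an unadjusted p under 0.05. Mki67, the standard marker of cycling cells, rose in SAT (log2 fold change 1.78 ± 0.16 SE, adjusted p = 5.95e-06) and in VAT (log2 fold change 1.82, adjusted p = 3.71e-06). Within the replication lists Gmnn was the member with a depot difference: log2 fold change 1.45 in SAT and 0.44 in VAT (adjusted p of the difference = 0.0491). That difference passed in 1 of 16 fits that each left out 1 library.

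Some interferon genes differed by depot. Of the 103, 46 rose in SAT and 6 in VAT, 5 of them in both, with medians of 0.45 and 0.02. Of all tested genes 3.46% rose in SAT and 2.84% in VAT. The difference passed for 8 members (7.77%, against 0.267% of all tested genes), and the median of the difference over the 103 was 0.33, against -0.03 over all tested genes. Ifit2 had a log2 fold change of 0.59 in SAT and -0.32 in VAT (adjusted p of the difference = 0.0135), and the difference passed in all 16 fits. Ifih1, a sensor of long double-stranded RNA, had 0.62 and -0.2 (adjusted p = 0.0201, 15 of 16 fits). Trim30a had 0.67 and -0.37 (adjusted p = 0.0201, 13 of 16 fits). In these 3 the VAT value was below 0 and did not pass its own test. The other 5, Sp100, Parp14, Herc6, Irgm2 and Tlr3, each passed in 4 of the 16 fits. Parp14 was named after its value was seen.

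Other depot differences were found gene by gene. Adamts19, a secreted metalloprotease, had a log2 fold change of 2.02 in SAT and 0.08 in VAT (adjusted p = 0.00434). Stac2 had 1.22 and -0.26 (adjusted p = 0.0135), and Rgcc, a regulator of cell cycle kinases, -0.78 and 0.56 (adjusted p = 0.0141). These 3 differences passed in all 16 fits, and the rise of Rgcc in VAT passed its own test (adjusted p = 0.0307). Arntl had 0.9 and 0.03 (adjusted p = 0.0201, 14 of 16 fits), and Heph, a ferroxidase, 0.85 and -0.01 (adjusted p = 0.0201, 14 of 16 fits). Wnt4 had -2.09 and 0.35 (adjusted p = 0.0226, 12 of 16 fits). In SAT Wnt4 stood at 1.71, 1.99, 3.4 and 2.24 CPM in WT and 0.6, 0.699, 0.345 and 0.528 CPM in KO, and every KO library was lower. Lipid storage genes of adipocytes were compared in the same way. In VAT 14 of 31 rose, against 2.84% of all tested genes in VAT, with a median of 0.48. In SAT none rose and 2 fell (6.45%, against 2.43% of all tested genes), Plin4 and Pnpla2, with a median of -0.09. Both calls were lost without KO SAT replicate 2 and without KO SAT replicate 4. The difference passed for 6 of the 31, against 0.267% of all tested genes. In the 16 fits without 1 library it passed in 16 for Lgals12, 7 for Pcx and Plin1, and 5 for Fabp5, Agpat2 and Dgat2. These 6 were named after their values were seen. Genes of the glucocorticoid list fell in both depots, 14 of 26 in SAT and 7 of 26 in VAT. Of all tested genes 2.43% fell in SAT and 1.26% in VAT. The difference passed for none of the 26 by edgeR, for 1 by DESeq2 and for 7 at an unadjusted p under 0.05.

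**Figure D5:**
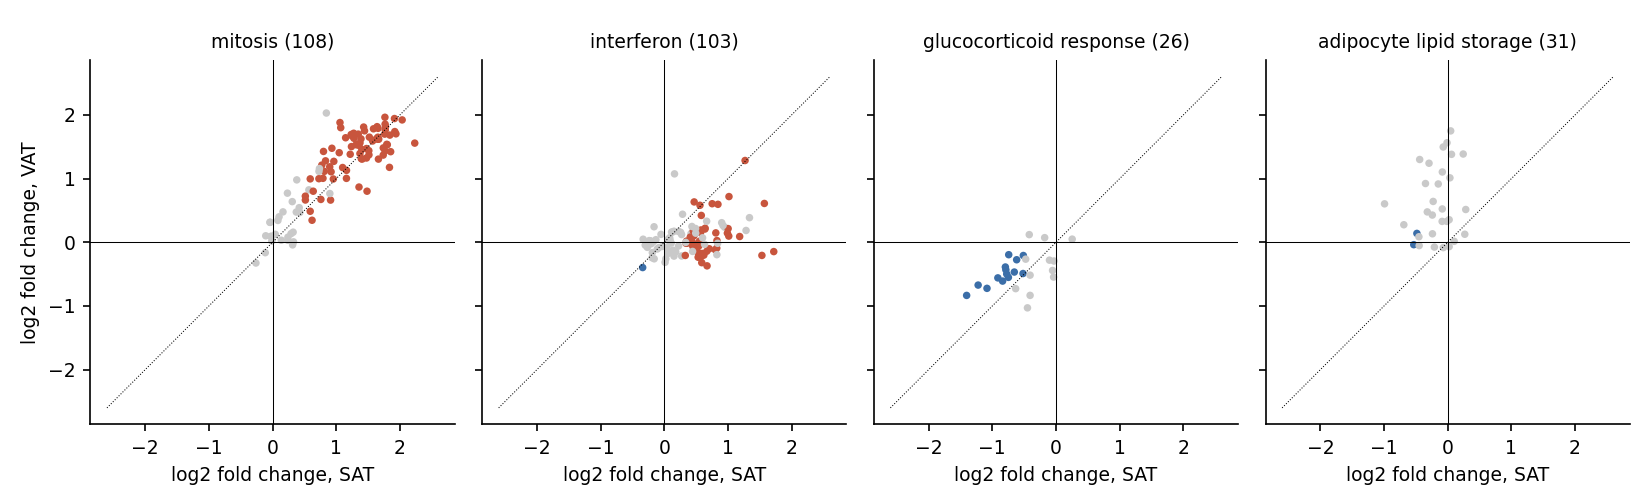
Log2 fold change, KO against WT, in SAT (horizontal) and VAT (vertical) for the tested members of 4 gene groups. Red and blue mark genes that rose or fell in SAT, grey the rest, and the dotted line marks equal effects. Mitotic genes lie along the dotted line, and interferon genes spread to the right near a VAT value of 0. Most genes of the glucocorticoid list lie below 0 on both axes, and lipid storage genes spread upwards.

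Chromosome 15, which carries Nr4a1, had 8.18% of its tested genes past the threshold, against 5.89% of all tested genes. The X chromosome had 8.15% and chromosome 1 7.99%, and the lowest share was 4.02%, on chromosome 16. Within 2 Mb of Nr4a1 10 of 91 tested genes passed (11%), from 2 to 5 Mb 5 of 57 (8.77%), from 5 to 10 Mb none of 20, from 10 to 20 Mb 6 of 112 (5.36%), and beyond 20 Mb 32 of 379 (8.44%). Slc4a8, a bicarbonate transporter at an offset of -0.49 Mb from Nr4a1, stood at 24.7, 37.4, 19 and 24.6 CPM in WT and 9.89, 9.07, 10.3 and 8.43 CPM in KO (log2 fold change -1.49 ± 0.16 SE, adjusted p = 4.29e-05) and also fell in VAT (log2 fold change -0.88, adjusted p = 0.00225). Mettl7a1, at -0.95 Mb, stood at 46.4, 47.8, 47.9 and 48.4 CPM in WT and 26.5, 22.3, 25.8 and 24.3 CPM in KO (log2 fold change -0.95 ± 0.07 SE, adjusted p = 4.26e-07) and fell in VAT as well (-0.81, adjusted p = 3.69e-06). The KO libraries of each lay below all WT libraries. Racgap1, Troap and Espl1, which lie within 3 Mb and belong to the mitotic machinery, rose, Espl1 with a call lost without KO SAT replicate 2 and without KO SAT replicate 4. For genes of this stretch the allele's 129S2 flank and the loss of Nr4a1 cannot be told apart.

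Markers of other cells moved in a few places. Of 6 testable B cell and plasma cell genes, Igkc and Igj rose (33.3%, against 3.46% of all tested genes). The B cell list summed to 12.4 to 16.1 CPM in WT and 21.8 to 46.1 CPM in KO, with no overlap. Igkc stood at 0, 0.0255, 0.2 and 0 CPM in WT and 0.048, 5.75, 2.55 and 4.34 CPM in KO, and KO SAT replicate 1 overlapped the WT range. The calls were lost in 5 and 6 of the 8 fits, both of them without KO SAT replicate 2 (largest adjusted p = 0.0715 for Igkc and 0.0917 for Igj). Kdr, an endothelial receptor, rose at 9.13, 9.44, 9.84 and 6.81 CPM in WT and 10.6, 27.1, 13.5 and 16.9 CPM in KO (log2 fold change 0.95 ± 0.24 SE, adjusted p = 0.0248), and its call was lost in 4 of the 8 fits, those omitting KO replicates 2 and 4 and WT replicates 1 and 4, while 12 other endothelial markers did not pass. Of 15 pericyte and smooth muscle genes 3 fell (20%, against 2.43% of all tested genes), Higd1b, Lmod1 and Tagln, with overlapping groups and 0 to 5 across the 8 fits. The pericyte and smooth muscle list summed to 2957 to 4959 CPM in WT and 2366 to 3268 CPM in KO. Of 14 macrophage and myeloid genes Trem2 fell, a call lost in 6 of the 8 fits. Of 14 Schwann cell genes Ngfr rose, with overlapping groups and a call lost in 5 of the 8 fits, while 5 were lower at an unadjusted p under 0.05 and the list's median was -0.29. The part of these cell markers in the gene groups above was not tested. Of 80 tested cytosolic ribosomal protein genes, Rpl30 fell by edgeR, at 194, 185, 340.1 and 186 CPM in WT and 116, 128, 111 and 125 CPM in KO (log2 fold change -0.91 ± 0.16 SE, adjusted p = 0.00258). DESeq2 called 22 lower, and 69 were lower at an unadjusted p under 0.05 by edgeR. In 40 of the 80 every KO library lay below every WT library, against 6.75% of all tested genes. The ribosomal list's median log2 fold change was -0.43, and -0.16 without WT SAT replicate 3, so most of the shift of that list moved with that library. Without WT SAT replicate 2, 9 fell, and without WT SAT replicate 4, 3.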

How the data were processed

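RNA-seq counts of 16 libraries, 4 per genotype and depot, were analysed. The authors deposited raw counts per gene symbol. The submitters' processing notes name the build mm10, the aligner STAR, the counter featureCounts, FastQC and DESeq, without versions or settings. A scaled copy of the table was not used. Groups came from the labels.

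Counts were fitted for all 16 libraries with edgeR 4.0.16 in R 4.3.3 (filterByExpr, TMM, quasi-likelihood test, 4 group coefficients, 12 residual degrees of freedom), which was tested on simulated data. Adjusted p-values are Benjamini-Hochberg values over 16842 genes, and standard errors are the log2 fold change over the square root of F. DESeq2 1.42.0 and limma 3.58.1 (voom), other scalings, no filter, SAT libraries alone, a replicate block and leaving out each library were alternatives, 23 in all.

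Of 38720 entries, 35628 matched a GENCODE vM21 symbol, 1764 a synonym, 1301 nothing, 27 were spreadsheet dates and 2 repeats. Unstranded reads of overlapping genes, and reads of near-identical copies, cannot be told apart.

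Named genes were Nr4a1 to Nr4a3, the 15 largest changes each way among called coding genes of at least 5 CPM without overlap, the 10 most abundant called genes, 6 long noncoding RNAs, up to 5 members per list by p (all members of lists of at most 12), called genes within 10 Mb of Nr4a1, and 12 by the depot difference. Members and lists were chosen with earlier results of these data known.

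A few list members are counted but not reported by name here. Same-numbered WT and KO SAT libraries share only a number. Precision is set by the spread between 4 libraries and, for genes of low level, also by counting error, since 3 counts come to 0.0609 to 0.1 CPM in the SAT libraries.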

Additional observations from a re-analysis of the deposited data

Results flagged for a closer look

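In 18 of 296 groups of 4 libraries checked for the genes named, 1 library lay apart: its gap to the nearest, divided by the group's range, exceeded Dixon's critical value for 4 samples. Chance gives about 1 in 20 such groups. KO SAT replicate 1 was the highest of its group for Gsn (0.845). KO SAT replicate 1 was the lowest of its group for Cdkn1b (0.883) and Sesn3 (0.969). KO SAT replicate 2 was the highest of its group for Jdp2 (0.845), Mfap4 (0.903) and Agt (0.978). KO SAT replicate 3 was the lowest of its group for Dhx58 (0.88). KO SAT replicate 4 was the highest of its group for Ccnb2 (0.901). KO SAT replicate 4 was the lowest of its group for Gdf10 (0.831). WT SAT replicate 1 was the highest of its group for Gdf10 (0.902). WT SAT replicate 2 was the highest of its group for Sema3g (0.911). WT SAT replicate 3 was the highest of its group for Galnt15 (0.917), Klf9 (0.869) and Rpl30 (0.945). At the low end, WT SAT replicate 3 stood apart as the lowest of its group for Nr4a3 (0.924), Fanca (0.891) and Peg10 (0.841). WT SAT replicate 4 was the highest of its group for Racgap1 (0.974). 

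edgeR's test of the difference between the 2 depots' knockout effects passed for 18 genes named by the rule. The log2 fold change in SAT minus that in VAT was above 0 for Alx4 (1.78), Gmnn (1.02), Arntl (0.877), Tlr3 (0.536), Ifih1 (0.824), Sp100 (0.554), Ifit2 (0.909), Herc6 (0.808), Irgm2 (0.6), Matn2 (0.919), Adamts19 (1.94), Pdgfd (0.67), Kdr (1.77), Stac2 (1.48), Trim30a (1.04) and Heph (0.868). It was below 0 for Wnt4 (-2.44) and Rgcc (-1.33). In the 16 fits that each left out 1 library, the difference passed in all 16 for Ifit2, Adamts19, Stac2 and Rgcc, 15 for Ifih1, 14 for Arntl and Heph, 13 for Trim30a, 12 for Wnt4, 9 for Pdgfd, 7 for Kdr, 5 for Alx4 and Matn2, 4 for Tlr3, Sp100, Herc6 and Irgm2 and 1 for Gmnn. With the replicate block 14 of all tested genes passed, against 45.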

How the results depend on the processing

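No gene named by the rule that passed the test changed direction under any of the 23 alternatives. List medians near 0 did: that of Hox genes was above 0 without KO SAT replicate 2, WT SAT replicate 2 or WT SAT replicate 3 (at most 0.01), and that of transport kinesins was -0.02 without WT SAT replicate 3. With all libraries 992 genes passed (582 higher, 410 lower), and 45 passed for the depot difference. DESeq2 gave 1691 (883 and 808) and 527. The 8 SAT libraries alone gave 507 (365 and 142). Library totals without TMM gave 29 for the depot difference. Leaving out 1 library gave 473 to 1160 genes, 312 to 679 higher, 161 to 498 lower and 7 to 148 for the depot difference. Beyond 1.5 times the count, the SAT calls moved without KO SAT replicate 2 (586, of which 375 higher and 211 lower), without KO SAT replicate 4 (473, of which 312 and 161) and, for genes that fell, without KO SAT replicate 3 (237). The depot difference fell to 11 and 12 without WT SAT replicates 1 and 4, to 23, 20, 18 and 7 without KO SAT replicates 1 to 4, to 17 and 16 without WT VAT replicates 1 and 3, and to 23, 15 and 17 without KO VAT replicates 1, 2 and 4. It rose to 75 without WT SAT replicate 2 and to 148 without KO VAT replicate 3. The cause was not tested.

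With the replicate block 873 genes passed (529 higher, 344 lower) and 14 for the depot difference. Same-numbered WT and KO SAT libraries deviated together with correlations of 0.00662, -0.0778, -0.0934 and 0.0481. Of 4 WT libraries 1 correlated best with its own number, and these numbers were not taken as pairs of WT and KO. Whether SAT and VAT libraries of the same genotype and number come from the same mice was not stated, and such pairing was not examined. The replicate block does not model it, since the block also ties WT to KO libraries of a number.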

Other observations

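A few genes on chromosomes other than that of Nr4a1 differed widely between the genotypes, and some of them were close to absent in WT SAT. They were chosen after their values were seen. Values in VAT and edgeR's adjusted p-values are given for Gm15446, Pisd-ps1 and Pisd-ps2 only. Gm15446, a predicted coding gene on chromosome 5, stood at 0.228, 0.128, 0.1 and 0.0943 CPM in WT SAT and 7.99, 8.39, 8.59 and 8.02 CPM in KO SAT. Its means were 0.0307 ± 0.0122 CPM in WT VAT and 6.86 ± 0.605 CPM in KO VAT (SD, n = 4), with adjusted p = 7.21e-12 in SAT and 3.02e-12 in VAT. No library of a genotype reached the range of the other.

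Gm21451, listed as an unprocessed pseudogene on chromosome 14, was counted at 0 in every WT SAT library and at 1.37, 1.94, 1.86 and 1.99 CPM in KO SAT. A count of 0 in those WT libraries allows up to 0.0685 to 0.1 CPM (3 counts of each total, counting error only). Eif3s6-ps2, a processed pseudogene, stood at 0.0457, 0.0255, 0 and 0.0707 CPM in WT SAT and 1.03, 1.63, 1.4 and 1.4 CPM in KO SAT. Reads of such copies can also come from a parent gene.

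Pisd-ps1 and Pisd-ps2, transcribed pseudogene copies on chromosomes 11 and 17, were lower in KO. Pisd-ps1 stood at 61, 47.9, 53 and 48.1 CPM in WT SAT and 14, 10.5, 13 and 9.7 CPM in KO SAT, and at 48.7 ± 5.97 CPM in WT VAT and 15.1 ± 1.79 CPM in KO VAT (SD, n = 4), with adjusted p = 5.2e-08 in SAT and 1.67e-06 in VAT. Pisd-ps2 stood at 12.2, 9.57, 8.04 and 10.5 CPM in WT SAT and 2.83, 1.76, 2.25 and 2.4 CPM in KO SAT, and at 9.92 ± 2.02 CPM in WT VAT and 2.88 ± 0.639 CPM in KO VAT (SD, n = 4), with adjusted p = 8.24e-06 in SAT and 3.3e-05 in VAT. They share sequence, so their reads may not be independent. Whether strain DNA carried with the allele or the loss of Nr4a1 sets these values cannot be told apart.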
